A study of Citrus sinensis with 4 samples.

Results

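Gene expression in the fruit endocarp of the sweet orange cultivar Dahongtiancheng (Citrus sinensis L. Osbeck) was compared between 70 and 50 days after full bloom. The comparison rests on 2 of the 4 libraries of the series, 1 Dahongtiancheng library at 70 days and 1 at 50 days, and on all 29036 genes listed for them. The other 2 libraries come from endocarps of the cultivar Bingtangcheng at 70 and at 50 days and are used here only to show where Dahongtiancheng differed from them. All 4 are poly(A)-enriched RNA of isolated endocarps, and the labels name no treatment. They do not say how many fruits or trees went into a library.

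The endocarp is the innermost layer of the citrus fruit wall. Juice sacs grow from it into the fruit segments, and they become the edible flesh. Citrus fruit growth passes from a phase dominated by cell division into one dominated by cell enlargement, during which the large vacuoles of the juice sac cells fill with water, sugars and citric acid. The question here is which transcripts differed between the 2 sampled ages within 1 cultivar.

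The 70-day library held 16192148 fragments and the 50-day library 16253052. In Bingtangcheng the depth was 16445383 (70 days) and 14040916 (50 days). Levels are given in CPM, fragments scaled to library size with TMM factors (a correction for differing RNA composition). A single fragment was worth 0.0666 CPM at 70 days and 0.0576 CPM at 50 days in Dahongtiancheng, so a count of 0 allowed up to 0.200 CPM and 0.173 CPM. With 1 library at each age there is no replicate error. Intervals below cover counting error only, and age cannot be told apart from other sources of difference between the 2 libraries. In a bulk sample, fewer cells of a type and less RNA per cell cannot be told apart either. The files pair the gene identifiers with no gene names, so no function is given for any gene, no pathway list was filled and the tissue could not be checked against its marker genes. Positions are those of the files, whose genome build the labels and headers do not state.

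At 70 days, 1573 genes were higher and 2082 lower than at 50 days in Dahongtiancheng. These are 9.70% and 12.8% of the 16211 expressed genes. A gene was counted as expressed where at least 1 of the 2 libraries had 10 fragments and 1 CPM. It met the size rule for a difference where its levels differed at least 2-fold and the 99% exact counting interval of the ratio excluded 1. On this scale, 59.1% of the expressed genes stayed within 1.5-fold between the ages and 76.3% within 2-fold. The median log2 ratio of 70 over 50 days was 0.0015, which TMM scaling itself sets near 0. How many of these genes were higher changed with the scaling. Library totals alone moved the median log2 ratio of the expressed genes by -0.21 and gave 1175 higher and 2649 lower genes, so that 30.7% of the genes meeting the rule were higher in place of 43.0%.

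Differences of the genes that met the rule were mostly of moderate size. The median ratio was 3.31-fold among the higher and 3.72-fold among the lower genes. At least 4-fold differences were found for 641 higher and 971 lower genes, and at least 16-fold ones for 161 and 218, with a count of 0 entered as 3 fragments. Lower genes outnumbered higher ones in each of these classes, also with library totals. At 64-fold or more the numbers were close, 32 higher and 26 lower, and library totals gave 30 and 32.

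**Figure D1:**
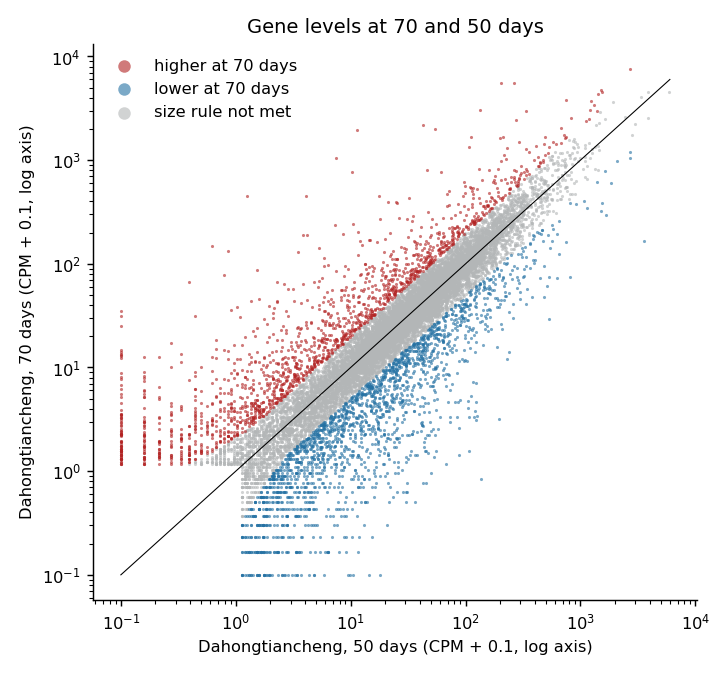
Level of each expressed gene in Dahongtiancheng at 70 days (vertical) against 50 days (horizontal), in CPM plus 0.1 on log axes, 1 point per gene. Red points are the 1573 genes higher and blue points the 2082 genes lower at 70 days, and the line marks equal levels. Points at the far left and the bottom had 0 fragments in 1 library.

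The higher genes made up a much larger part of the 70-day library. Their summed share was 21.1% of its fragments (21.1 to 21.2, exact 95% binomial interval), against 7.32% (7.31 to 7.33) of the 50-day library. The 2082 lower genes took up 2.90% (2.89 to 2.91) of the 70-day and 11.4% (11.4 to 11.4) of the 50-day library. These shares describe the genes that the size rule picked, and their direction follows from it. The gain was concentrated. Among the higher genes, 46 accounted for 50% of the CPM gained, and the 10 with the largest gains accounted for 22.4%. Among the lower genes, 95 accounted for 50% of the CPM lost. In total the higher genes gained 159635 CPM, while the lower genes fell by 75216 CPM in sum. The balance of these sums depends on the scaling. The TMM factors, 0.927 at 70 days and 1.07 at 50 days, give the libraries unequal CPM totals. The excess of gain over loss in CPM therefore does not show a net rise. The fragment shares above are not scaled by these factors, but the genes were chosen with them.

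The most abundant transcripts were partly exchanged. Ranked by fragments, without division by gene length, 56 of the 100 most abundant genes were the same at both ages, and 4 of the 10 most abundant. Of the 44 genes that entered the leading 100 by 70 days, 33 met the size rule as higher, and 7 had ranked beyond 1000 at 50 days. Of the 44 that left it, 14 met the rule as lower, and 3 ranked beyond 1000 at 70 days. Both groups were chosen by their ranks in these same libraries, so an excess in their own direction is built in. Among genes with a mean of at least 500 CPM, 27.2% were higher and 5.96% lower. The ranks used unscaled fragments and the rule TMM-scaled levels, so the 33 and the 14 depend on the scaling. The leading 100 genes accounted for 18.0% of the 70-day library (18.0 to 18.0) and 14.0% of the 50-day library (14.0 to 14.1), with the same kind of interval. Some abundant genes stayed close to their level. Of 139 genes with at least 500 CPM at both ages, 75 were within 1.5-fold, a share no higher than the 59.1% of all expressed genes.

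Among the higher genes, the largest single gain in CPM was that of Cs9g19220 (chromosome 9, 18215576 to 18218555, minus strand). It had 83110 fragments, or 5537 CPM, at 70 days and 3541 fragments, or 204 CPM, at 50 days, a 27.2-fold higher level (95% counting interval 26.3 to 28.1). It thereby moved to rank 3 at 70 days, against rank 818 at 50 days. Cs8g18240 (chromosome 8, 20906302 to 20920121, plus strand) followed with 83137 fragments (5539 CPM) at 70 days and 4604 (265 CPM) at 50 days, 20.9-fold higher (20.3 to 21.5). These 2 transcripts were thus close to each other in fragments at both ages. They were also higher at 70 days in Bingtangcheng, Cs9g19220 with counts of 39756 (70 days) and 1907 (50 days) and Cs8g18240 with 60203 and 3085.

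Among the lower genes, the largest loss in CPM was that of Cs2g14720 (chromosome 2, 11609556 to 11615461, minus strand). It had 2500 fragments (167 CPM) at 70 days and 61732 (3554 CPM) at 50 days, a 21.3-fold lower level (95% counting interval 20.5 to 22.2). This took it to rank 1311 at 70 days, against rank 4 at 50 days. Cs8g03680 (chromosome 8, 1819846 to 1822221, minus strand) had 15906 fragments (1060 CPM) at 70 days and 46962 (2704 CPM) at 50 days. It was 2.55-fold lower (2.51 to 2.60) and stayed among the 100 most abundant genes at both ages, at rank 87 and rank 8. In Bingtangcheng the level of Cs2g14720 was 6.92-fold lower at 70 days (6.74 to 7.10) and that of Cs8g03680 1.24-fold lower (1.22 to 1.26).

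Direction varied with the level of a gene. Among the 235 genes with a mean of at least 500 CPM over the 2 libraries, 27.2% were higher and 5.96% lower at 70 days. Among the 3362 expressed genes under 5 CPM, 16.7% were higher and 24.9% lower. These are 561 and 836 genes, with 465 and 1016 by library totals. Between 5 and 50 CPM, 581 genes were higher and 967 lower out of 8035. Between 50 and 500 CPM, 367 were higher and 265 lower out of 4579, but this order flipped with library totals (235 and 381) and after the genes were put in 20 level bins and each bin was centred on its median (268 and 337). The centring also flipped the order under 5 CPM, to 685 higher and 675 lower. The excess of higher genes at 500 CPM or more kept its direction in both of these. Library totals gave 48 higher and 18 lower genes, and centring gave 38 and 24. The centring takes out shifts between bins only. The 235 genes fill just a part of the highest bin, so a shift with level inside that bin can remain. The same 235 genes, grouped by their Dahongtiancheng level, had 74 higher and 6 lower at 70 days in Bingtangcheng.

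Short genes met the size rule more often than long ones. In the shortest 20% of the expressed genes, up to 922 bases, 14.4% were higher and 15.8% lower. In the longest 20%, from 2656 bases, the shares were 6.23% and 7.87%. Short genes also had lower levels, with a median of 8.54 CPM against 47.9 CPM in the longest class, so length and level moved together. Within the class of 50 to 500 CPM, 12.9% of the shortest and 4.22% of the longest genes were higher, and 9.13% and 2.18% were lower. The order of the directions in this class changed with the scaling. Of the 1516 longest genes, 64 were higher and 33 lower, but 36 and 73 with library totals and 39 and 60 after the level bins were centred. Of the 482 shortest, 62 were higher and 44 lower, but 43 and 51 with library totals and 52 and 48 after centring. Under 5 CPM, 17.9% of the shortest and 13.9% of the longest genes were higher, and 23.5% and 22.3% were lower. Between 5 and 50 CPM the shares of lower genes were also close, with 11.6% and 11.5%, whereas 10.9% and 6.38% were higher. The gradient over all levels was also seen in Bingtangcheng, where 10.8% of the shortest genes were higher and 18.7% lower, against 5.38% and 7.51% of the longest.

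**Figure D2:**
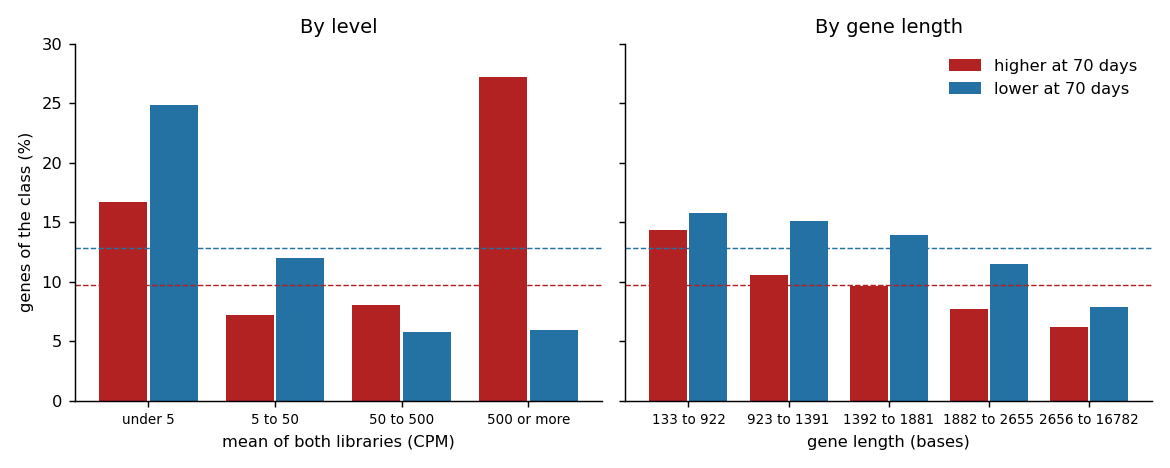
Share of expressed genes (vertical, percent) that were higher (red) or lower (blue) at 70 days in Dahongtiancheng, by mean level in CPM on the left and by gene length in bases on the right. Dashed lines give the shares over all expressed genes, 9.70% higher and 12.8% lower. The class of 500 CPM or more has 27.2% higher genes, and both shares decrease with gene length.

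The highest ratio, ranked by the lower bound of its 99% counting interval, was that of Citrus_newGene_2305 (unplaced sequence, 44192043 to 44194611, minus strand), a model of the group that the files list apart under the name Citrus_newGene. It had 6768 fragments (451 CPM) at 70 days and 20 (1.15 CPM) at 50 days, a 392-fold higher level (95% counting interval 253 to 642). In Bingtangcheng it had 302 fragments at 70 days and 1 at 50 days, 314-fold higher (56.0 to 12461). Its ratio was 1.82 times as large in Dahongtiancheng, with a 95% counting interval of 0.345 to 9.59 that includes 1. Cs5g03150 (chromosome 5, 1577848 to 1580780, minus strand) came next with 29313 fragments (1953 CPM) at 70 days and 195 (11.2 CPM) at 50 days, 174-fold higher (151 to 201). It stood at rank 32 at 70 days, against rank 10768 at 50 days. In Bingtangcheng, Cs5g03150 had 4072 fragments at 70 days and 625 at 50 days, 6.78-fold higher (6.23 to 7.39). Its ratio of 70 over 50 days was 25.6 times as large in Dahongtiancheng as in Bingtangcheng (95% counting interval 21.7 to 30.2).

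The lowest ratio, ranked by the upper bound, was that of Cs5g24900 (chromosome 5, 27720292 to 27725379, plus strand). It had 11 fragments (0.733 CPM) at 70 days and 2355 (136 CPM) at 50 days, a 185-fold lower level (95% counting interval 103 to 371). The decrease was 19.5-fold (16.3 to 23.5) in Bingtangcheng, with 125 fragments at 70 days and 2535 at 50 days. The gene orange1.1t03258 (unplaced sequence, 50087571 to 50090903, minus strand) had 0 fragments at 70 days and 313 (18.0 CPM) at 50 days. With the count of 0 set at 3 fragments of that library, its level was 90.2-fold lower. The 95% counting interval, taken from the counts themselves, starts at 72.9. In Bingtangcheng the same gene had 720 fragments at 70 days and 148 at 50 days, a 5.07-fold higher level (4.24 to 6.09).

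Cs1g16150 (chromosome 1, 19246312 to 19254259, plus strand) was also among the higher genes. In Dahongtiancheng it had 24911 fragments (1660 CPM) at 70 days and 3707 (213 CPM) at 50 days, 7.78-fold higher (95% counting interval 7.51 to 8.05). In Bingtangcheng it had 3955 fragments (264 CPM) and 250 (16.05 CPM), 16.5-fold higher (14.5 to 18.8). The level was thus higher in Dahongtiancheng at each age, while the increase was the larger one in Bingtangcheng, by 2.11 times (1.85 to 2.41).

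Some genes were detected at 1 age only. Among the higher genes, 79 had 0 fragments at 50 days, and their counts at 70 days ran from 16 to 522 with a median of 32. Among the lower genes, 47 had 0 fragments at 70 days, with 18 to 313 at 50 days and a median of 32. Most were therefore weakly expressed, and 13 and 6 of them reached 100 fragments at the age where they were detected. In Bingtangcheng, 11 of the 79 met the size rule as higher, against 8.06% of all genes tested there, and 23 of the 47 met it as lower, against 13.4%. Among tested genes with a Dahongtiancheng mean under 5 CPM, which is closer to the level of these genes, the Bingtangcheng shares were 11.1% and 30.6%. Of the 79 genes, 16 had 0 fragments in both Bingtangcheng libraries, as did 2 of the 47.

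Genes of both directions lay on every chromosome. Between 8.38% (chromosome 1) and 11.0% (chromosome 8) of the expressed genes of a chromosome were higher, and between 11.9% (unplaced sequence) and 15.4% (chromosome 9) were lower. The Citrus_newGene models differed from the other identifier forms. Of 473 expressed models, 95 were higher (20.1%) and 66 lower (14.0%), an order that flipped with library totals, which gave 75 and 80. Genes with identifiers of the form Cs were higher in 9.35% and lower in 13.0%, and those of the form orange1.1t in 9.63% and 11.7%. Between 5 and 50 CPM, 40 of 171 Citrus_newGene models were higher and 11 lower, and here library totals kept the order with 27 and 14. In the same range 541 of 7864 other genes were higher and 956 lower. Most of the expressed models lay under 5 CPM, where 53 of 286 were higher (18.5%) and 55 lower (19.2%), against 508 (16.5%) and 781 (25.4%) of 3076 other genes. In Bingtangcheng the order of all expressed models was the opposite one, with 61 of 459 higher and 90 lower, and it was even between 5 and 50 CPM, with 21 and 20.

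Some of the genes of the same direction lay next to each other. On the numbered chromosomes, the next expressed gene was also higher for 15.6% of 1350 higher genes, against 9.06% of the other genes. For lower genes the corresponding shares were 15.8% of 1808 and 12.6%. The contrast was larger for neighbours on the same strand that did not overlap, where 18.8% of the higher genes were followed by a higher gene, against 9.26% of the others. On opposite strands the shares were 10.4% and 8.89%. For lower genes, the next gene was lower in 17.4% against 13.0% on the same strand and in 13.8% against 12.5% on opposite strands. Fragments of near-identical neighbouring copies cannot be separated with certainty, and the part of this in the shares was not tested.

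Unbroken runs of at least 3 expressed genes in the same direction numbered 35 for higher and 38 for lower genes, with 109 and 123 genes. One run of 4 higher genes spanned 88.7 kb of the plus strand of chromosome 5 (12817109 to 12905805). Its genes counted 2580, 1171, 1430 and 446 (70 days) against 342, 12, 153 and 148 (50 days), which made them between 3.49-fold and 113-fold higher. All 4 were also higher in Bingtangcheng, where they counted 1676, 470, 909 and 444 (70 days) against 189, 0, 85 and 165 (50 days).

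The longest runs of lower genes held 5 genes each. The steeper one spanned 197 kb on chromosome 5 (13307601 to 13504691), where 4 of the genes were on the plus strand. The counts were 41, 5, 2, 0 and 6 at 70 days and 102, 178, 205, 29 and 627 at 50 days. In Bingtangcheng 3 of the 5 were lower, and the counts there were 61, 43, 46, 13 and 125 at 70 days and 87, 268, 277, 24 and 1138 at 50 days. The other run, on chromosome 3 (25636978 to 25676842, plus strand), had 1262 fragments in sum at 70 days and 3407 at 50 days.

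A run of 4 higher genes on chromosome 2 (1742600 to 1765134) went the other way in the other cultivar. In Dahongtiancheng the genes counted 94, 89, 5457 and 533 fragments (70 days) against 27, 51, 2679 and 256 (50 days), between 2.02-fold and 4.03-fold higher. In Bingtangcheng they counted 0, 27, 1569 and 151 (70 days) against 37, 68, 4473 and 469 (50 days), and all 4 met the size rule as lower. These runs were picked after their values had been seen, and they carry no test.

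**Figure D3:**
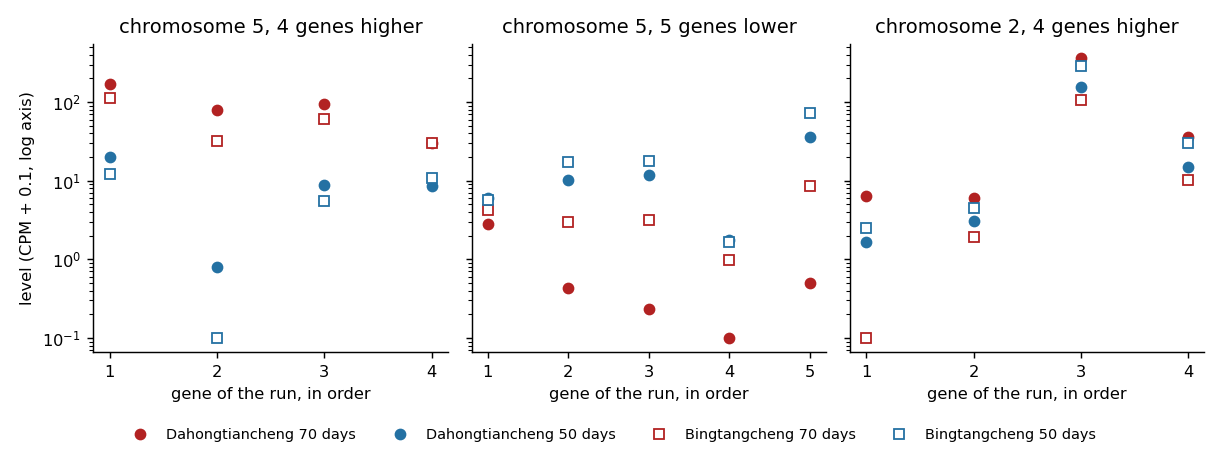
Levels of the genes of 3 runs of neighbouring genes in the 4 libraries, in CPM plus 0.1 on a log axis, in their order along the chromosome. Filled circles are Dahongtiancheng and open squares Bingtangcheng, red at 70 and blue at 50 days. In the left and middle runs red lies on the same side of blue in both cultivars, while in the right one red lies above blue for circles and below blue for squares. Levels are not divided by gene length.

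Bingtangcheng at 70 against 50 days is the comparison most like this one. It uses none of the same libraries, but the same scaling. There 1305 genes were higher and 2165 lower, 8.06% and 13.4% of 16199 expressed genes. The lists shared 659 higher genes, 41.9% of the Dahongtiancheng list and 50.5% of the Bingtangcheng list. They shared 1214 lower genes, 58.3% and 56.1% of the lists. Of the genes higher in Dahongtiancheng, 76.2% had a ratio above 1 in Bingtangcheng, and of the lower genes 91.4% had a ratio below 1. Genes with 0 fragments in both Bingtangcheng libraries counted as neither. The median log2 ratio in Bingtangcheng was -0.012 over all genes expressed there, but -0.47 at a Dahongtiancheng mean under 5 CPM. A ratio below 1 was thus the more common one at that level, where 561 of the higher and 836 of the lower genes lay.

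The shared part was set beside the size of the difference for each direction. Among lower genes, the share that was also lower in Bingtangcheng stood at 58.3% for all 2082 genes, 75.9% for the 971 genes at 4-fold or more and 80.7% for the 462 at 8-fold or more. Among higher genes it stood at 41.9% for all, 47.7% for the 641 at 4-fold or more, 45.2% for the 323 at 8-fold or more and 44.1% for the 161 at 16-fold or more. For lower genes at 16-fold or more it was 77.5% of 218. The shares moved with level. Among genes with a mean of at least 5 CPM in Dahongtiancheng, 51.2% of 1012 higher and 59.9% of 1246 lower genes were shared, and at 8-fold or more 74.1% of 135 higher and 93.6% of 233 lower genes. Opposite differences in Bingtangcheng were found for 99 of the higher genes (6.29%) and 36 of the lower genes (1.73%). Both shares were below those of all genes tested in Bingtangcheng, of which 13.4% were lower and 8.06% higher. The difference between the directions has no test.

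**Figure D4:**
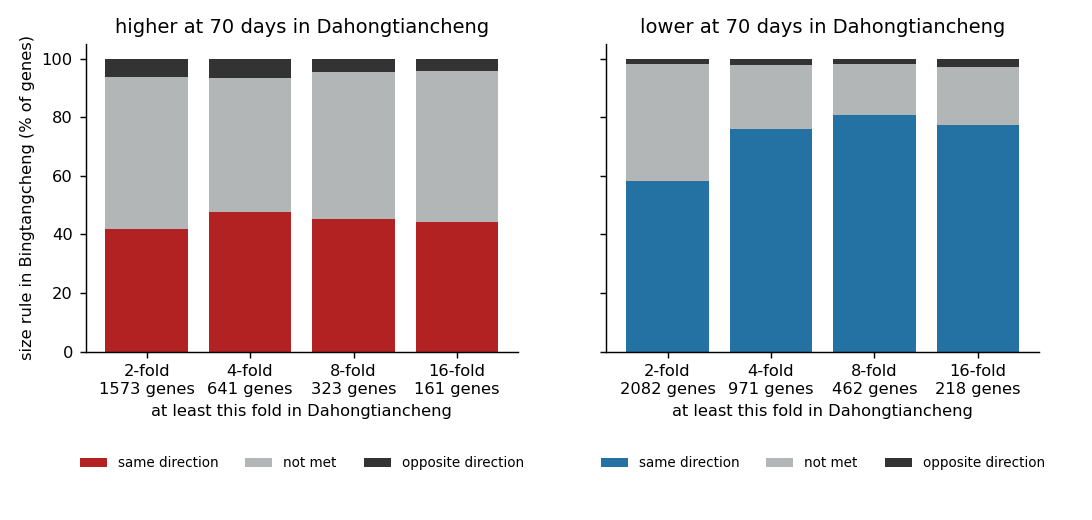
Share (vertical, percent) of the genes higher (left) or lower (right) at 70 days in Dahongtiancheng that met the size rule in Bingtangcheng in the same direction (coloured), in the opposite direction (black) or in neither (grey). Bars give genes of at least 2-, 4-, 8- and 16-fold in Dahongtiancheng. The shared part reaches 80.7% for lower and 47.7% for higher genes.

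Among genes that met the rule in Dahongtiancheng alone, both Bingtangcheng levels were more often near its 50-day level than near its 70-day level. Of the 815 genes higher in Dahongtiancheng that met the rule in neither direction in Bingtangcheng, 365 (44.8%) had both Bingtangcheng levels within 2-fold of the Dahongtiancheng 50-day level and not of the 70-day level. For 81 genes (9.94%) both were near the 70-day level alone. A further 112 genes were counted near both levels and 257 near neither. Among the 832 corresponding lower genes the numbers were 460 (55.3%) and 78 (9.38%), with 115 near both and 179 near neither. The choice of the genes also shapes these numbers, and they carry no test. Missing the rule in Bingtangcheng does not show that the change differed. The ratio of 70 over 50 days was at least 2-fold larger in Dahongtiancheng beyond a 99% counting interval for 346 of the 815 genes, and at least 2-fold smaller for 332 of the 832. Over all genes these shares were 7.45% and 6.12%. The 815 and 832 genes were chosen on the ratios of both cultivars, so an excess over those shares is built in.

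Over all genes expressed in any of the 4 libraries, the ratio of 70 over 50 days was larger in Dahongtiancheng than in Bingtangcheng by this rule for 1243 of 16692 genes (7.45%) and smaller for 1022 (6.12%). Of the 1573 genes higher in Dahongtiancheng, 525 (33.4%) had the larger ratio there and 45 (2.86%) the larger ratio in Bingtangcheng. Of the 2082 lower genes, 533 (25.6%) had the smaller ratio in Dahongtiancheng and 89 (4.27%) the larger. Since these lists were chosen on the Dahongtiancheng ratio, an excess of large changes there is built in.

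Among genes that met the size rule in Dahongtiancheng, those ranked farthest apart by the ratio of ratios moved in opposite directions in the cultivars. Genes that met the rule in Bingtangcheng alone were not ranked. The counts of orange1.1t00607 (unplaced sequence, 6988034 to 6989803) were 88 at 70 days and 1 at 50 days in Dahongtiancheng, and 1 and 81 in Bingtangcheng. The level was 102-fold higher at 70 days (95% counting interval 17.8 to 4067) in Dahongtiancheng and 77.8-fold lower (13.6 to 3110) in Bingtangcheng. With 1 fragment at 50 days the size of the Dahongtiancheng ratio is poorly fixed. Its log2 value was 6.67 from the counts and 10.78 from the deposited FPKM, and the cause of this gap was not tested. Citrus_newGene_591 (chromosome 3, 18959265 to 18960075) counted 613 (70 days) and 112 (50 days) in Dahongtiancheng, 6.33-fold higher (5.17 to 7.82), and 2 and 305 in Bingtangcheng, 146-fold lower (40.2 to 1215). Both were higher at 70 days in Dahongtiancheng and nearly lost at that age in Bingtangcheng.

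In the same ranking, the reverse pattern was strongest in Cs1g21100 (chromosome 1, 24050431 to 24052317). In Dahongtiancheng its counts were 0 (70 days) and 169 (50 days), and in Bingtangcheng 285 and 0. These are an at least 48.7-fold lower level in Dahongtiancheng and an at least 98.9-fold higher one in Bingtangcheng, with 95% counting intervals that start at 39.2 and 79.9. Cs7g25330 (chromosome 7, 25670607 to 25671884) had counts of 0 (70 days) and 181 (50 days) in Dahongtiancheng. With the same setting it was 52.1-fold lower, with an interval that starts at 42.0. In Bingtangcheng it had 398 and 31 fragments, 13.4-fold higher (9.27 to 19.9). In each of these 2 genes the 70-day Dahongtiancheng library was the one without fragments in that cultivar.

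**Figure D5:**
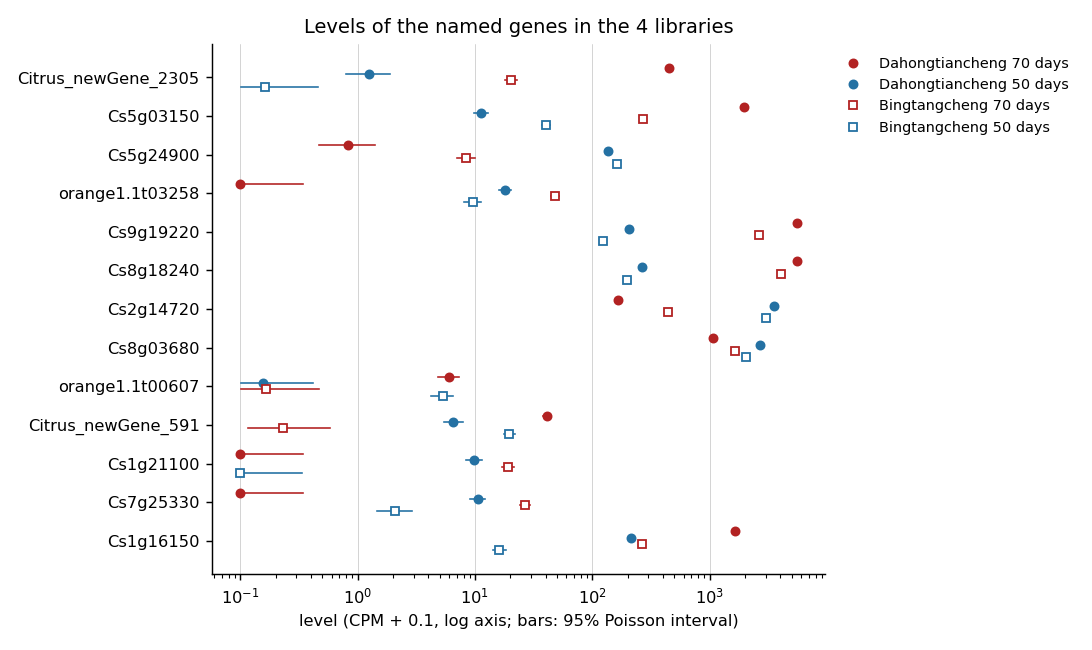
Levels of the 13 named genes in the 4 libraries, in CPM plus 0.1 on a log axis, 1 row per gene, with 95% Poisson intervals that cover counting error only. Filled circles are Dahongtiancheng and open squares Bingtangcheng, red at 70 and blue at 50 days. In orange1.1t03258, orange1.1t00607, Citrus_newGene_591, Cs1g21100 and Cs7g25330 the order of red and blue is opposite in the cultivars. Levels are not divided by gene length.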

How the data were processed

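Per the file headers, the authors deposited for each library a raw fragment count per gene and an FPKM value. With the aligner, counting tool, strand setting and genome build not given in the sources used here, fragments of overlapping genes and near-identical copies cannot be separated with certainty. The deposited counts were used, and the deposited FPKM only as an alternative. A repeated header line (1 per file) was dropped. None of the 29036 identifiers matched the reference table (0 matches), so the rule for named genes reduced to 2 per direction. It ranked genes by the bound of the 99% interval nearest to 1, by CPM gained or lost, and by the bound of the ratio of ratios. The last 2 rankings covered only genes that met the size rule in Dahongtiancheng. Cs1g16150 was fixed by name. TMM factors (edgeR 4.0.16, R 4.3.3) were computed over the 4 libraries and were 0.927 and 1.07 for Dahongtiancheng at 70 and 50 days. Ratios had no prior count and exact conditional (Clopper-Pearson) intervals (scipy 1.17.1). The ratio of ratios and its normal interval were both computed from counts plus 0.5. With 1 library per group no test was made. The scripts were tested on simulated data. The comparison, lists and rules were chosen with earlier results of these data known, and the classes of level and length, the neighbour runs and the comparison of levels with Bingtangcheng were chosen after the data were seen. Fold classes were first counted with ratios to a count of 0 left unbounded. After those counts had been seen, a count of 0 was entered as 3 fragments, and the split of the shared genes at a mean of 5 CPM was added after that. Alternatives were other scalings (DESeq2 1.42.0 for size factors), floors, folds and intervals.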

Additional observations from a re-analysis of the deposited data

Results flagged for a closer look

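Genes that met the size rule in opposite directions in the cultivars were flagged, because the single library pair of each cultivar moved the other way. There were 99 genes higher at 70 days in Dahongtiancheng and lower in Bingtangcheng, and 36 lower in Dahongtiancheng and higher in Bingtangcheng. They made up 6.29% and 1.73% of the Dahongtiancheng lists. Of all genes tested in Bingtangcheng, 13.4% were lower and 8.06% higher, so opposite differences were rarer than these shares. Among the named genes, the log2 ratio of ratios, Dahongtiancheng over Bingtangcheng, was 11.80 for orange1.1t00607 and 9.53 for Citrus_newGene_591. It was -11.42 for orange1.1t03258, -17.41 for Cs1g21100 and -12.01 for Cs7g25330. These values depend on the 0.5 added to each count where a count is 0 or 1. With 1 library per group the differences were not tested, and cultivar and library cannot be told apart.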

How the results depend on the processing

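The counts of higher and lower genes in Dahongtiancheng lay within 1.5 times of 1573 and 2082 under the other scalings, floors and intervals tried, with extremes of 1137 and 1462 (floor of 5 CPM) and, for the higher genes, 1990 (deposited FPKM, 2420 lower) and, for the lower genes, 2649 (library totals). The fold threshold moved them further, to 641 and 971 at 4-fold and to 2822 and 3184 at 1.5-fold. By construction, that threshold sets the size asked for. At 4-fold, the ratio of ratios was larger for 556 and smaller for 289 genes. Its other alternatives ranged from 902 to 1395 larger and from 855 to 1021 smaller. A prior count of 2 gave 1557 higher and 2035 lower genes, and leaving out genes that overlap one on the opposite strand gave 1448 and 1957. These 2 alternatives were chosen after seeing the data. Under these alternatives 0 genes met the rule in the direction opposite to that printed. For most alternatives this was fixed in advance. Floors, folds, intervals and the choice of genes keep the same ratios. Library totals and size factors moved the median log2 ratio by only -0.21 and 0.02, too little to reverse a 2-fold difference. For the 13 named genes, 30 ratios under library totals, size factors or FPKM lay within the 95% counting interval of the printed ratio, 6 lay outside and 0 changed sign. All 6 came from library totals, in Cs5g03150, Cs9g19220, Cs8g18240, Cs2g14720, Cs8g03680 and Cs1g16150. Genes with wider intervals stay within them more easily. For orange1.1t03258, Cs1g21100 and Cs7g25330, with 0 fragments at 70 days in Dahongtiancheng, no FPKM ratio was compared. One of the 30 is that of orange1.1t00607 from FPKM, with a log2 value of 10.78 in place of 6.67, which its wide interval covers. TMM over the 2 Dahongtiancheng libraries gave the same scaling between them and so tests nothing. Library totals and size factors shift all ratios by 1 common factor, too small to change the sign of any of the 13 genes. No paired analysis was possible because each group has 1 library and the labels give no replicate numbers. Depth limits statements on genes near 10 fragments, where intervals are wide.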
